A study of Danio rerio with 10 samples.

Results

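The retinal transcription factor genes measured across the series were atoh7, rx1, rx2, vsx1, pax6a, pax6b and six3b. They were chosen by gene symbol, and these 7 genes stand among 14563 symbols in the deposited tables. The study sequenced polyadenylated RNA of zebrafish embryos (Danio rerio) of the TL strain at 36 hours post fertilization (hpf). Homozygous fn10a mutants and their siblings came from crosses of fn10a heterozygotes, and the siblings pooled heterozygous with homozygous wild-type embryos. Wild-type controls came from crosses of wild-type TL fish. Each of these 3 groups had 2 whole-embryo libraries of 30 embryos, and nuclear and cytoplasmic RNA had 1 library each for mutants and for siblings.

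In the vertebrate eye, an eye field is set up in the anterior neural plate, grows out as the optic cup, and its dividing progenitors then give rise to the retinal neurons in an ordered sequence. Six3, Rx and Pax6 proteins are homeodomain transcription factors of the eye field and of retinal progenitors; Six3 also acts in the forebrain, and Pax6 in the brain, the lens and the endocrine pancreas. Atoh7, a basic helix-loop-helix factor, is required in zebrafish for retinal ganglion cells, the earliest retinal neurons to be born. Vsx1 is a paired-like homeodomain factor known from bipolar interneurons. rx1 and rx2 are related retinal homeobox genes, and pax6a and pax6b are the duplicated zebrafish Pax6 genes.

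Each gene had 1 RefSeq transcript record in the files, none overlapped another record, and all 7 symbols were matched in the RefSeq gene table. On the zebrafish build danRer7, atoh7 (NM_131632) lay at chr13:25673589-25674614 on the plus strand and six3b (NM_131363) at chr12:27128402-27130993 on the plus strand. The record of rx1 (NM_131225) lay at chr22:4640467-4647985 and that of rx2 (NM_131226) at chr2:56046514-56067030, both on the minus strand. vsx1 (NM_131333) lay at chr17:20893556-20896226 on the minus strand. pax6a (NM_131304) lay at chr25:15289723-15310396 on the minus strand and pax6b (NM_131641) at chr7:16636740-16662395 on the plus strand. Levels are given as RPKM, reads scaled to transcript length and to the read total of the library, a unit in which genes can be compared.

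Reads on listed transcripts numbered 34060890 to 82752349 in the whole-embryo libraries and 7164408 to 19195327 in the fractions. Replicate 1 libraries of the whole embryos were the deeper ones, and their files used another header and start coordinate than those of replicate 2. Deviations of replicate 1 from replicate 2 ran together across genes in the 3 groups, so replicate number was also put into the model as a term, beside the model without it. The labels do not say that replicates came from separate clutches, so every p-value reflects library-to-library spread, and that spread may be technical. With the replicate term, it is only the spread left once the step between the replicate numbers is taken out. The labels do not name the mutated gene; fn10a is known as a mutation of eftud2, which encodes a splicing factor. eftud2 stood at 11.3 and 3.60 RPKM in mutants, at 28.1 and 9.91 RPKM in siblings and at 30.2 and 10.5 RPKM in wild-type controls, lowest in the mutants within each replicate number. Genes of other tissues were abundant in these whole embryos, where 7 epidermis genes summed to between 9762 and 13761 RPKM. The 7 retinal genes summed to 48.3 and 19.4 RPKM in mutants, 55.2 and 19.4 RPKM in siblings and 74.1 and 22.5 RPKM in wild-type controls.

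Of the 7 genes, atoh7 and rx2 were much lower in fn10a mutants than in siblings, in both replicate numbers. vsx1 was also lower in both, while rx1 and six3b stood somewhat higher and pax6a and pax6b differed little. With the replicate term, atoh7 fell 5.86-fold and rx2 fell 3.54-fold, and neither the other 5 genes nor any gene in the fit without that term passed the threshold of an adjusted p of 0.05.

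atoh7, the gene of ganglion cell formation, stood at 0.102 RPKM (15 reads) and 0.628 RPKM (68 reads) in mutant replicates 1 and 2. It stood at 0.581 RPKM (84 reads) and 3.86 RPKM (433 reads) in siblings, and at 1.07 RPKM (150 reads) and 6.48 RPKM (721 reads) in wild-type controls. Mutants were lowest within each replicate number, yet mutant replicate 2 lay above sibling replicate 1, so that the mutant and sibling groups overlap. The group means were 0.365 ± 0.372 RPKM in mutants, 2.22 ± 2.32 RPKM in siblings and 3.78 ± 3.82 RPKM in wild-type controls (SD, n = 2 each). Within replicate numbers, the RPKM ratio of mutants to siblings was 0.175 and 0.163. In edgeR's quasi-likelihood test with the replicate term the log2 difference was -2.55 (SE 0.23, adjusted p = 0.0166), and only 5 of 10147 genes tested had a lower one. Without the replicate term it was -2.69 (SE 1.82, adjusted p = 1). In bulk RNA, fewer cells of a type and less RNA per cell cannot be told apart.

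rx2, a retinal homeobox gene, stood at 1.35 and 0.259 RPKM in mutants, against 4.84 and 0.958 RPKM in siblings and 7.29 and 1.14 RPKM in wild-type controls. It is the reverse of atoh7 in its replicates, high in replicate 1 and low in replicate 2, but again the mutants were lowest within each replicate number. Mutant means were 0.803 ± 0.77 RPKM, against 2.9 ± 2.75 RPKM in siblings and 4.22 ± 4.35 RPKM in wild-type controls (SD, n = 2 each). The RPKM ratio of mutants to siblings was 0.278 in replicate 1 and 0.27 in replicate 2. edgeR with the replicate term gave a log2 difference of -1.82 (SE 0.232, adjusted p = 0.0374), and 24 genes had a lower one. Without the term edgeR gave -1.76 for rx2 (SE 0.861, adjusted p = 1).

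The calls of atoh7 and rx2 were 2 of 7 genes, both lower. Of all 10147 genes tested with the replicate term, 1.74% were called and 0.581% were called lower. Without the term edgeR called 0 genes; 534 genes had an unadjusted p under 0.05, none of the 7 among them. DESeq2 without the term called 99 genes higher and 50 lower, none of them among the 7. The calls needed every mutant and sibling library but not the controls: atoh7 and rx2 were still called without either wild-type control library, in fits that called far more of all genes (21.9% without replicate 1 and 19.5% without replicate 2). With 1 library of the mutants or siblings left out, edgeR's adjusted p with the replicate term ran from 0.0647 to 0.317 for atoh7 and from 0.182 to 0.41 for rx2, while the log2 differences stayed between -2.65 and -2.41 for atoh7 and between -2.0 and -1.67 for rx2. The pseudocount mattered as well, since limma on log2(RPKM + 1) with the replicate term gave adjusted p = 0.12 for atoh7 and 0.0968 for rx2.

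**Figure D1:**
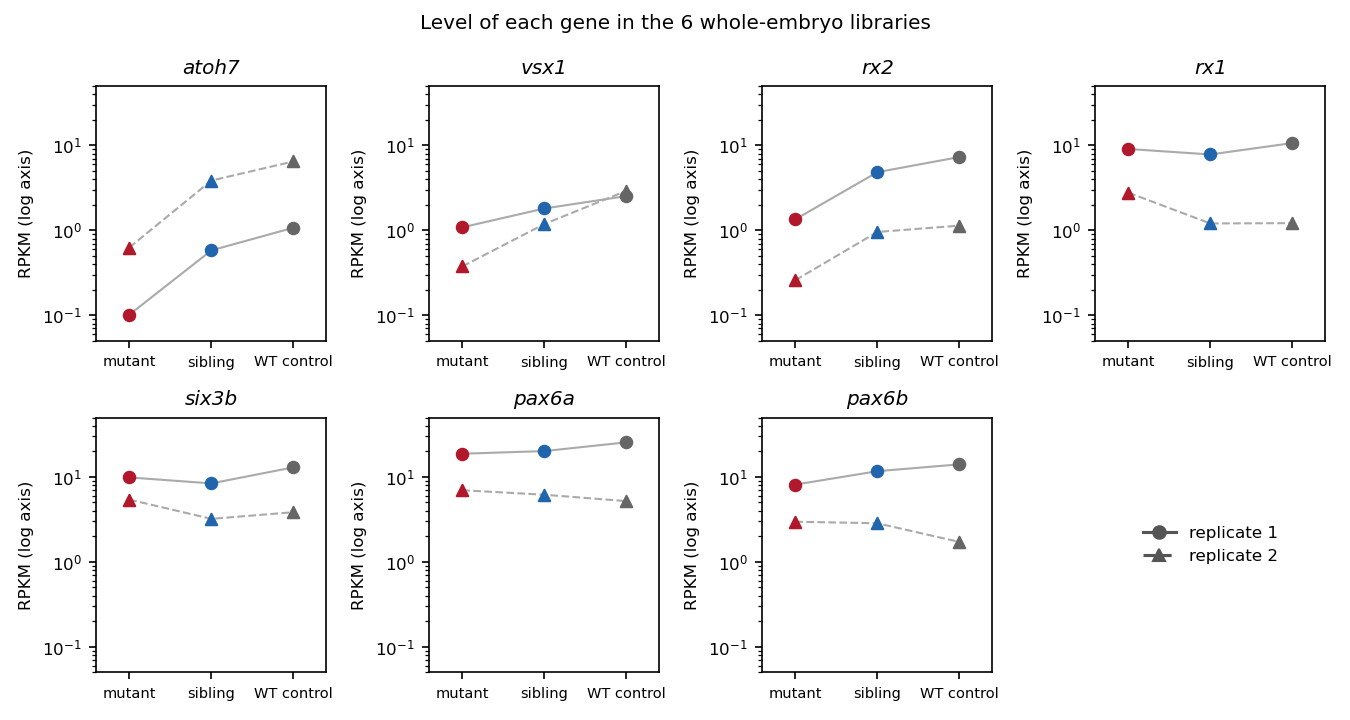
Level of each gene in RPKM (log axis) in the 6 whole-embryo libraries, with mutants, siblings and wild-type controls from left to right, replicate 1 as circles with solid lines and replicate 2 as triangles with dashed lines. Mutants are lowest for atoh7, rx2 and vsx1 within each replicate number, and atoh7 is the gene with replicate 2 far above replicate 1.

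vsx1, the paired-like homeodomain gene, had 1.09 and 0.376 RPKM in mutants, against 1.81 and 1.19 RPKM in siblings and 2.54 and 2.92 RPKM in wild-type controls. A whole-embryo level does not assign vsx1 to bipolar cells. vsx1 was the only gene of the 7 whose mutant and sibling libraries did not overlap, and no library of any group overlapped another group's. Of all genes tested, 8.55% had mutants below siblings without overlap. The log2 difference was -0.61 in replicate 1 and -1.71 in replicate 2, and edgeR with the replicate term gave -1.05 (SE 0.449, adjusted p = 0.243). The difference thus did not pass the test, although only 192 genes had a lower one.

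rx1, the partner of rx2, had 9.07 and 2.78 RPKM in mutants, against 7.82 and 1.21 RPKM in siblings and 10.7 and 1.22 RPKM in wild-type controls. Mutants lay above siblings in both replicate numbers, by a log2 difference of 0.34 and 1.15, while the groups overlapped. edgeR with the replicate term gave 0.78 (SE 0.322, adjusted p = 0.231), higher than 96.2% of genes. six3b, the eye field and forebrain gene, had 9.86 and 5.41 RPKM in mutants, 8.38 and 3.21 RPKM in siblings and 13 and 3.84 RPKM in wild-type controls. Its mutants too lay above siblings in both replicate numbers, with a log2 difference of 0.54 (SE 0.217, adjusted p = 0.221 in edgeR with the replicate term). Neither difference passed, though in the fit of only the 4 mutant and sibling libraries with the replicate term edgeR gave adjusted p = 0.0457 for rx1 and 0.0341 for six3b. That fit called 22.1% of all genes.

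The Pax6 genes were near level between mutants and siblings. pax6a had 18.7 and 6.97 RPKM in mutants, 20.1 and 6.16 RPKM in siblings and 25.5 and 5.19 RPKM in wild-type controls, and it was the most abundant of the 7 genes in every whole-embryo library except wild-type control replicate 2, where atoh7 was. Its log2 difference between mutants and siblings was 0.079 (SE 0.216, adjusted p = 0.86 in edgeR with the replicate term). pax6b had 8.11 and 2.97 RPKM in mutants, 11.7 and 2.85 RPKM in siblings and 14.1 and 1.72 RPKM in wild-type controls. Its log2 difference was -0.17 (SE 0.36, adjusted p = 0.815 in edgeR with the replicate term). Both genes varied far more between the replicate numbers than between these groups.

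Directions were taken on the counts as scaled for edgeR. By direction alone, atoh7, rx2 and vsx1 were lower in both replicate numbers and rx1, six3b and pax6a higher, with pax6b mixed. That is 3 genes each way on this scale, where 37.9% of all genes were lower and 38.8% higher in both. In RPKM pax6a was mixed too, with ratios of mutants to siblings of 0.931 in replicate 1 and 1.13 in replicate 2. The median log2 difference of the 7 genes was -0.17 with the replicate term, against a median near 0 over all genes tested.

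**Figure D2:**
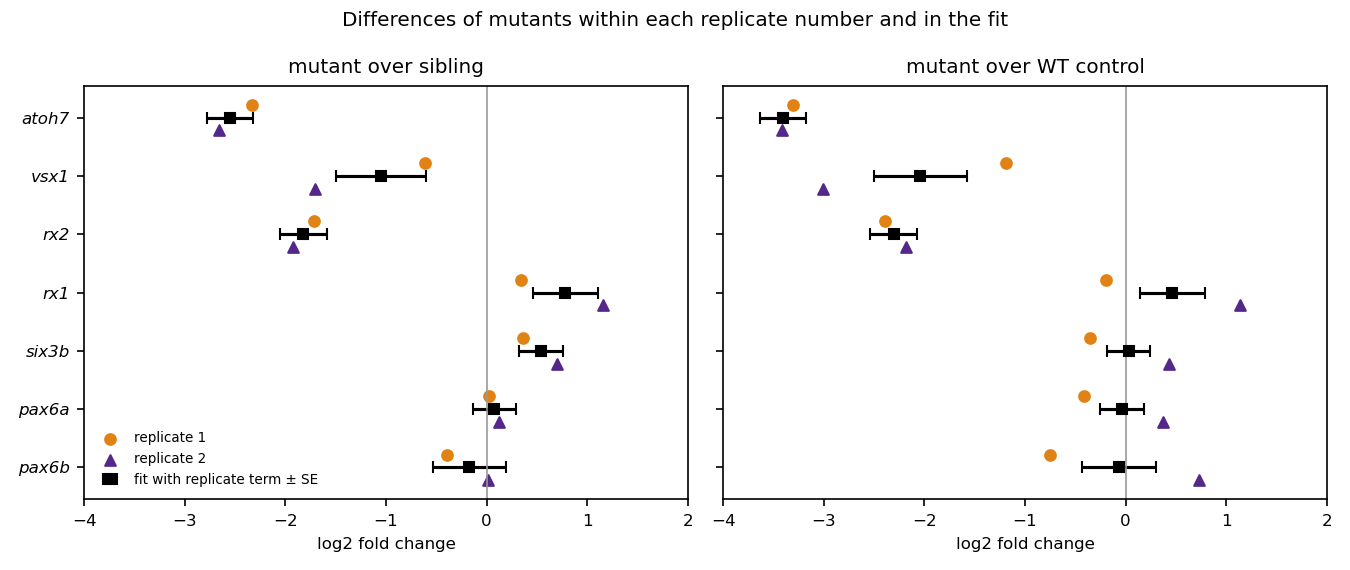
Log2 fold change of mutants over siblings and of mutants over wild-type controls for each gene, as squares with SE bars from the edgeR fit with the replicate term and as circles and triangles within replicate 1 and replicate 2. atoh7 and rx2 lie far below 0 in both replicate numbers and both comparisons, vsx1 lies below 0 with its replicates apart, and the other genes lie on both sides of 0 against the wild-type controls.

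Against the wild-type controls the same pair was called, with larger differences. This comparison uses the same mutant libraries as the one with siblings, so the results below are set beside those above and are not a repeat of them. With the replicate term atoh7 fell 10.6-fold, with a log2 difference of -3.41 (SE 0.233, adjusted p = 0.00754 in edgeR) and RPKM ratios of 0.0946 and 0.0969 in replicates 1 and 2. rx2 fell 4.94-fold, with a log2 difference of -2.3 (SE 0.233, adjusted p = 0.0166 in edgeR) and RPKM ratios of 0.185 and 0.228. These are 2 of 7 genes, where 3.46% of all genes were called and 1.55% were called lower. atoh7 lost its call without mutant replicate 2 (adjusted p = 0.0768 in edgeR with the replicate term). rx2 lost it when any mutant or sibling library was left out, with edgeR's adjusted p from 0.0677 to 0.134.

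vsx1 came close, with a log2 difference of -2.04 (SE 0.462, adjusted p = 0.0734 in edgeR with the replicate term) and RPKM ratios of 0.428 and 0.129. DESeq2 called it with the replicate term (adjusted p = 0.000347) and without it (adjusted p = 0.0132), where 17.0% and 1.91% of all genes were called. It was also called without wild-type control replicate 1 (adjusted p = 0.00826 in edgeR with the replicate term), in a fit that called 23.3% of all genes. atoh7 and vsx1 were the genes whose mutant and control libraries did not overlap, both lower, beside 7.8% of all genes. edgeR without the replicate term called 0 genes, with 667 at an unadjusted p under 0.05, among them rx2 (adjusted p = 0.731) and vsx1 (adjusted p = 0.527). In that edgeR fit atoh7 had a log2 difference of -3.46 against wild-type controls (SE 1.87, adjusted p = 0.849).

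By direction, atoh7, rx2 and vsx1 were lower than in wild-type controls in both replicate numbers and none was higher in both, where 34.1% of all genes were lower and 32.7% higher. The remaining 4 genes took opposite directions in the 2 replicate numbers against wild-type controls. The RPKM ratio of mutants to wild-type controls was 0.851 and 2.29 for rx1, 0.761 and 1.41 for six3b, 0.734 and 1.34 for pax6a, and 0.577 and 1.73 for pax6b. Each was below 1 in replicate 1 and above 1 in replicate 2. Their log2 differences with the replicate term were 0.46 for rx1, 0.031 for six3b, -0.036 for pax6a and -0.063 for pax6b, with edgeR's adjusted p from 0.394 to 0.941.

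Between siblings and wild-type controls edgeR called none of the 7 genes. With the replicate term, atoh7, rx2 and vsx1 stood closer to the controls in siblings than in mutants, whereas six3b stood further from them in siblings (log2 difference -0.51). In the siblings of replicates 1 and 2, atoh7 stood at 0.541 and 0.595 times the control RPKM, and vsx1 at 0.714 and 0.406 times. In edgeR with the replicate term the log2 difference was -0.86 (SE 0.2, adjusted p = 0.565) for atoh7 and -0.99 (SE 0.438, adjusted p = 0.565) for vsx1. In all, 5 of the 7 genes were lower in siblings in both replicate numbers (atoh7, rx1, rx2, vsx1 and six3b), where 28.5% of all genes were lower and 27.1% higher in both. vsx1 alone had siblings below controls without overlap, which held for 2.52% of genes. Neither edgeR fit called any gene, with 99 genes at an unadjusted p under 0.05 without the replicate term and 878 with it, and DESeq2 called 12 genes without the term and 94 with it (0.926% of all genes), none of them among the 7.

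Several of the 7 genes differed strongly between the replicate numbers, and atoh7 was the gene that stood far lower in replicate 1 in all 3 groups. Its RPKM in replicate 1 was 0.175 times that of replicate 2 in mutants, 0.153 times in siblings and 0.167 times in wild-type controls. The median gene had ratios of 1.78, 1.99 and 1.87 in these groups, and at most 0.572% of genes lay below atoh7 in any of them. rx1 ran the other way, with ratios of 3.25, 6.44 and 8.7, as did rx2 with 5.05, 5.01 and 6.37 and pax6b with 2.73, 4.09 and 8.15. The ratios of atoh7 and of rx2 were each similar across the 3 groups, whereas those of rx1, pax6b, pax6a and six3b were smallest in mutants. Those of pax6a were 2.68 in mutants, 3.26 in siblings and 4.91 in wild-type controls, and those of six3b 1.82, 2.61 and 3.37. In mutants six3b was close to the median gene, and in siblings vsx1 lay below it. vsx1 was at 2.84 in mutants, 1.52 in siblings and 0.868 in wild-type controls. Of the read total that the RPKM divides by, listed transcripts took 54.2%, 58.7% and 55.1% in replicate 1 of wild-type controls, siblings and mutants. In replicate 2 they took 33.7%, 31.6% and 32.3%. This share moved with the replicate number, so the ratios of the 7 genes are to be set against those of the median gene. Whether the depth, the counting or the embryos move with the remaining differences between genes was not tested.

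**Figure D3:**
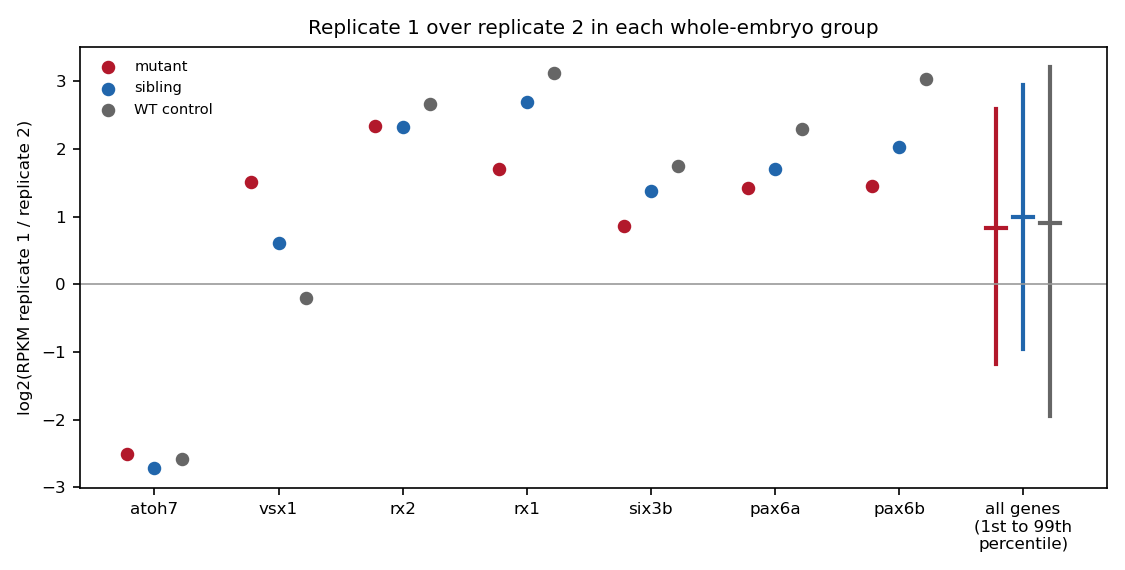
Log2 of the RPKM of replicate 1 over that of replicate 2 for each gene in mutants, siblings and wild-type controls, with the median and the 1st to 99th percentile of all genes tested at the right. atoh7 lies between -2.71 and -2.51 in the 3 groups, and rx1, rx2 and pax6b lie at 1.45 or above.

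The order of the levels followed the replicate number too. In replicate 1 of the siblings and of the wild-type controls it ran pax6a, pax6b, six3b, rx1, rx2, vsx1 and atoh7 from high to low. In replicate 1 of the mutants pax6b stood below rx1, and the rest kept that order. In replicate 2 of the mutants it ran pax6a, six3b, pax6b, rx1, atoh7, vsx1 and rx2, and the wild-type controls had atoh7 on top and rx2 last. The group means of pax6b, six3b and rx1 in mutants lay within their spread of each other, at 5.54 ± 3.64, 7.63 ± 3.15 and 5.93 ± 4.45 RPKM (SD, n = 2 each). That spread is the step between the replicate numbers, with all 3 genes higher in replicate 1, and within a library six3b lay above rx1 in all 10 libraries and above pax6b in both mutant embryo libraries.

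Ratios of RPKM within a library do not depend on how its read total was scaled. The pairs below were picked after their values were seen, so they describe these libraries. rx2 reached 0.148 and 0.093 times the RPKM of rx1 in mutant replicates 1 and 2, against 0.619 and 0.795 times in siblings and 0.684 and 0.935 times in wild-type controls. The fractions gave 0.0389 in mutant nuclei and 0.113 in mutant cytoplasm, against 0.229 in sibling nuclei and 0.456 in sibling cytoplasm, so the 4 mutant libraries lay below the 6 others. Fraction libraries are of another kind than embryo libraries and are not replicates of them. vsx1 over pax6a was 0.0579 and 0.0539 in mutant embryos and 0.0553 and 0.06 in mutant nuclei and cytoplasm. In the other libraries it ran from 0.0899 to 0.563, the highest being wild-type control replicate 2. vsx1 over rx1 was at most 0.191 in mutant libraries and at least 0.231 in the others. Other pairs overlapped. atoh7 over pax6a reached 0.09 in mutant libraries against a lowest value of 0.0289 in the others, and atoh7 over rx1 reached 0.226 against 0.0743. rx2 over pax6a reached 0.0719 against 0.0472. Within each replicate number and fraction, mutants lay below siblings in these pairs. With 2 embryo libraries against 2, an exact two-sided permutation test cannot go below p = 0.333, so these ratios are given without a test.

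pax6b over pax6a was 0.433 and 0.426 in mutant embryos, 0.58 and 0.462 in sibling embryos and 0.551 and 0.331 in wild-type controls. The mutant nuclei stood apart at 0.0149, against 0.342 in sibling nuclei. rx1 over six3b was 0.92 and 0.514 in mutant embryos, against 0.933 and 0.376 in siblings and 0.823 and 0.317 in wild-type controls. It was higher in replicate 1 than in replicate 2 in each group, and the groups overlapped.

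**Figure D4:**
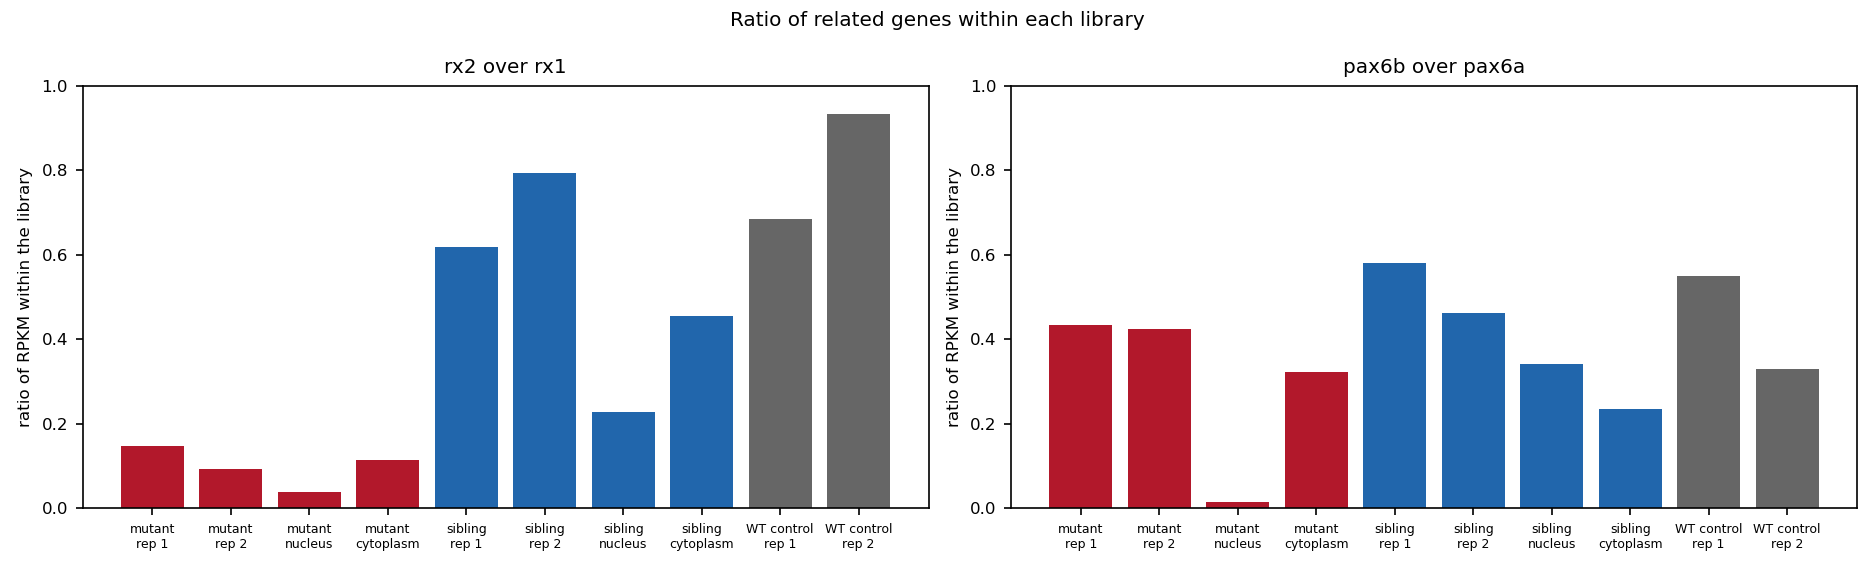
Ratio of the RPKM of related genes within each of the 10 libraries, as bars from 0. rx2 over rx1 is at most 0.148 in the 4 mutant libraries and at least 0.229 in the others, and pax6b over pax6a is lowest in mutant nuclei at 0.0149.

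The 4 fraction libraries have no replicates, so their values are given without a test and with 95% exact intervals that cover counting error only. The mutant nuclear library stood apart: 19.2% of its total reads lay on listed transcripts, against 31.6% to 58.7% in the other 9 libraries, and the median gene was lower in mutant than in sibling nuclei by a log2 ratio of -0.84 on the log2(RPKM + 1) scale. In cytoplasm that median was 0.021. The folds and intervals below use the authors' totals. Listed transcripts took 33.5% of that total in sibling nuclei, so scaled by listed reads the drops in mutant nuclei are smaller than printed. The intervals do not cover this choice of scaling. The labels do not say how many embryos went into a fraction library. Levels of fraction markers differed by genotype. The 1 nuclear RNA gene in the files had 2.21 RPKM in sibling nuclei and 3.22 RPKM in sibling cytoplasm, against 44.7 and 7.85 RPKM in mutants. In whole embryos that gene had 13.2 and 11.1 RPKM in mutants, 1.87 and 9.02 RPKM in siblings and 2.67 and 0.83 RPKM in wild-type controls. Its level thus does not mark the fraction alone. The 11 cytoplasmic mRNAs summed to 10479 RPKM in sibling nuclei and 15682 RPKM in sibling cytoplasm, against 5659 and 14315 RPKM in mutants. These sums use the authors' totals as well, so the scaling above lowers them in mutant nuclei. How cleanly the fractions were separated was not tested.

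atoh7 was low in both mutant fractions. It had 0.471 RPKM (18 reads) in mutant nuclei against 3.76 RPKM (163 reads) in sibling nuclei, 8.0-fold lower (interval 4.9 to 13.8). In cytoplasm it had 0.404 RPKM (19 reads) in mutants against 3.51 RPKM (153 reads) in siblings, 8.7-fold lower (interval 5.39 to 14.9). On the log2(RPKM + 1) scale these were differences of -1.7 and -1.69, and 0.209% of 8630 genes lay below atoh7 in cytoplasm. The difference in nuclei, where 39.9% of all genes were at least 2-fold lower on that scale, lay at the percentile 8.9. That scale damps a gene as low as atoh7 more than abundant genes, so its rank understates its fold in RPKM. In nuclei vsx1 and pax6b also reached that 2-fold.

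rx2 and vsx1 followed. rx2 had 0.499 RPKM (26 reads) in mutant cytoplasm against 1.62 RPKM (78 reads) in sibling cytoplasm, 3.24-fold lower (interval 2.06 to 5.27), and in nuclei only 4 reads in mutants against 32 in siblings. With a mean of 0.72 RPKM over the 4 libraries, rx2 did not pass the filter for the 8630 genes. On the log2(RPKM + 1) scale, which damps values this low, rx2 was at -0.61 in nuclei, against -0.84 for the median gene. Starting from 0.668 RPKM in sibling nuclei, rx2 could not reach the median's drop on that scale whatever its reads in mutants. In RPKM rx2 was 7.07-fold lower in mutant than in sibling nuclei (interval 2.51 to 27.5). In cytoplasm rx2 was at -0.80 on that scale, below the median gene at 0.02. vsx1 had 0.572 RPKM in mutant cytoplasm against 1.73 RPKM in sibling cytoplasm, 3.03-fold lower (interval 2.11 to 4.44), and 0.464 RPKM in mutant nuclei against 2.56 RPKM in sibling nuclei, 5.53-fold lower (interval 3.67 to 8.64). On the log2(RPKM + 1) scale, which damps the low values of vsx1 too, it lay at the percentile 23.6 of all genes in nuclei and 2.91 in cytoplasm. In cytoplasm, atoh7 was the gene of the 7 that reached a 2-fold lower value on the log2(RPKM + 1) scale, where 1.46% of genes did.

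The other 4 genes differed less in cytoplasm. rx1 had 4.41 RPKM in mutant cytoplasm against 3.55 RPKM in sibling cytoplasm, and 2.43 RPKM in mutant nuclei against 2.92 RPKM in sibling nuclei. six3b had 5.08 RPKM in mutant cytoplasm against 4.16 RPKM in sibling cytoplasm, and 4.62 RPKM in mutant nuclei against 2.95 RPKM in sibling nuclei. Its log2(RPKM + 1) difference in nuclei was 0.51, at the percentile 96.6. pax6a had 9.53 RPKM in mutant cytoplasm against 12 RPKM in sibling cytoplasm, and 8.39 RPKM in mutant nuclei against 14.1 RPKM in sibling nuclei. As deposited, six3b alone of the 7 was higher in mutant nuclei; scaled by listed reads, rx1 (0.49) and pax6a (0.047) were above 0 on the log2 scale there as well.

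pax6b differed between the fractions. In nuclei it had 0.125 RPKM (8 reads) in mutants against 4.84 RPKM (350 reads) in siblings, 38.6-fold lower in RPKM (interval 19.4 to 90.2). On the log2(RPKM + 1) scale pax6b differed by -2.38 there, at the percentile 1.63 of all genes. In cytoplasm it had 3.08 RPKM (242 reads) in mutants against 2.82 RPKM (205 reads) in siblings, a ratio whose interval covers 1. Being lower in mutant nuclei and higher in mutant cytoplasm was common, at 43.8% of all genes, and rx1 shared it. The mutant cytoplasm and the 2 mutant embryo libraries thus held pax6b at 2.97 to 8.11 RPKM, while the mutant nuclei held 8 reads. Its duplicate pax6a had 873 reads in the same nuclear library.

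Between the fractions of a genotype, the genes ranged widely. In siblings, where the median gene had a log2 ratio of nucleus to cytoplasm of -0.22 on the log2(RPKM + 1) scale, pax6b stood highest at 0.61 (percentile 96.8), with vsx1 at 0.38, pax6a at 0.22, atoh7 at 0.078, rx1 at -0.22, six3b at -0.38 and rx2 at -0.65. In mutants the median gene was at -1.06, and atoh7 at 0.067, vsx1 at -0.1, six3b at -0.11, pax6a at -0.17, rx2 at -0.45, rx1 at -0.66 and pax6b at -1.86. pax6b was thus highest of the 7 in siblings and lowest in mutants. Since the share of reads on listed transcripts and the levels of the fraction markers differed by genotype, these ratios are not a like measure of location in siblings and mutants. The share of genes at least 2-fold lower in nuclei was 53.7% in mutants and 7.47% in siblings, on the log2(RPKM + 1) scale. Among the 7 genes, pax6b in mutants was the only such value. A gene below 1 RPKM in cytoplasm cannot reach it on that scale, and in mutants this held for atoh7, rx2 and vsx1. In RPKM without the pseudocount rx2 was also lower in nuclei than in cytoplasm, 5.28-fold in mutants (interval 1.83 to 20.8) and 2.42-fold in siblings (interval 1.59 to 3.78). Scaled by listed reads in place of the authors' totals, 10 of the 14 ratios of nucleus to cytoplasm were above 0, against 5 as deposited.

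**Figure D5:**
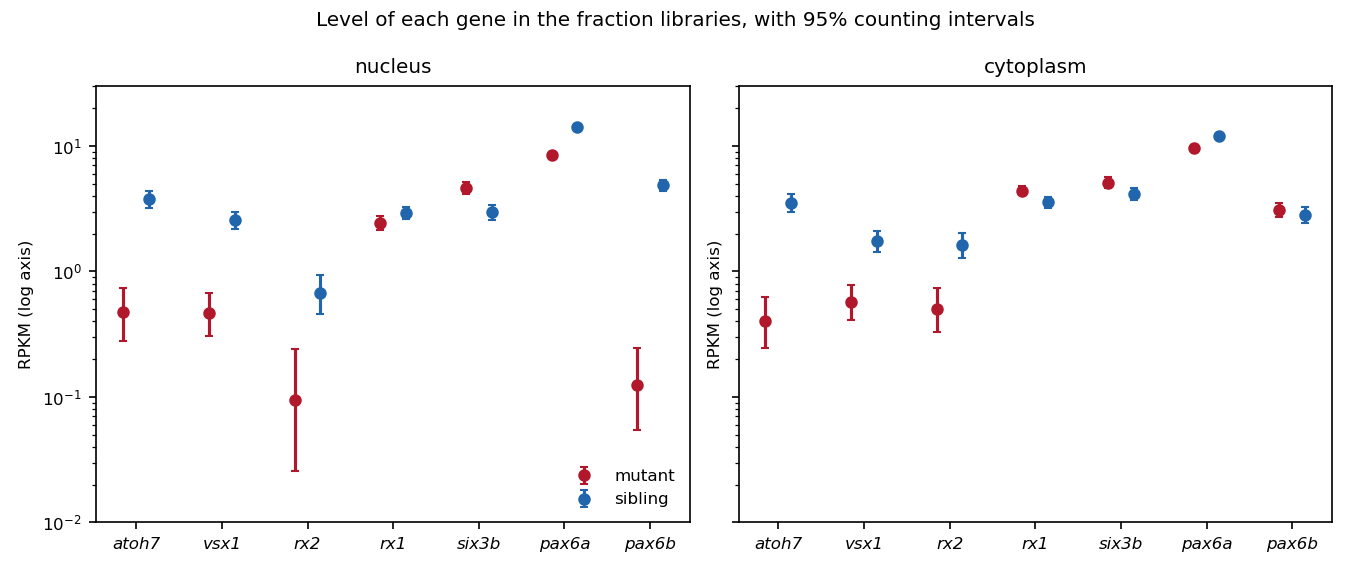
Level of each gene in RPKM (log axis) in nuclear and in cytoplasmic RNA, mutants left of siblings, with 95% exact counting intervals and 1 library per point. atoh7, rx2 and vsx1 are lower in mutants in both fractions, and pax6b is lower in mutant nuclei at 0.125 RPKM against 4.84 RPKM in sibling nuclei.

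Other genes of retinal development gave the setting of these values. Of the eye field and optic cup list 27 of 32 genes in the files were tested, and edgeR with the replicate term called none between mutants and siblings, while DESeq2 with the term called 3 lower. DESeq2 with the term called 11.8% of all genes in this comparison, 6.08% higher and 5.71% lower. The median log2 difference in the edgeR fit was 0.026, with 13 genes below 0 and 14 above. Against the wild-type controls, libraries that both of these comparisons share, 20 of the 27 were below 0 in mutants (median -0.3) and 21 of the 27 in siblings (median -0.17). mab21l2, a gene needed for eye growth in zebrafish, had 7.77 and 5.99 RPKM in mutants against 14 and 12.1 RPKM in siblings and 14.9 and 10.8 RPKM in wild-type controls. Its mutants lay below either group without overlap. Of all genes, 8.55% lay below siblings and 7.8% below wild-type controls without overlap. mab21l2 fell against the controls, with a log2 difference of -0.9 (SE 0.146, adjusted p = 0.0457 in edgeR with the replicate term), against adjusted p = 0.0584 with siblings. It was the 1 gene of the 27 that edgeR with the replicate term called against controls, beside 1.55% of all genes called lower. DESeq2 with the term called 0 higher and 5 lower of the 27 against controls, beside 865 higher and 856 lower of all 10147 genes. The median of the list against controls in edgeR with the term was -0.55 without wild-type control replicate 2 and -0.13 without replicate 1.

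Of the list of retinal neurogenesis and neuron subtypes 27 of 37 genes were tested. Between mutants and siblings edgeR with the replicate term called none, 19 were below 0, and the median log2 difference was -0.25; DESeq2 with the term called 2 higher and 5 lower, where the shares over all genes were again 6.08% and 5.71%. foxn4, a factor of amacrine and horizontal cell progenitors in mouse, had 4.61 and 1.33 RPKM in mutants against 8.74 and 2.67 RPKM in siblings, with adjusted p = 0.0722 in edgeR with the replicate term. Against wild-type controls 3 of the 27 fell in edgeR with the replicate term (ascl1a, neurod4 and bhlhe22), where 1.55% of all genes were called lower, and the median was -0.67. There DESeq2 with the term called 1 higher and 12 lower, beside 865 higher and 856 lower of all 10147 genes. neurod4, a proneural factor gene, had 15.9 and 6.41 RPKM in mutants against 30.7 and 18.3 RPKM in wild-type controls, with a log2 difference of -1.25 (SE 0.187, adjusted p = 0.0394 in edgeR with the replicate term).

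The list of Notch pathway and proliferation genes had all 21 genes tested. hes6, a gene of the hairy and enhancer of split family, fell in mutants: it had 13.8 and 7.35 RPKM in mutants against 28.5 and 15.7 RPKM in siblings, with a log2 difference of -1.03 (SE 0.135, adjusted p = 0.0392 in edgeR with the replicate term). In that fit it was the 1 gene of the 21 called against siblings, where 0.581% of all genes were called lower, with 16 below 0 and a median of -0.24. DESeq2 with the term called 1 higher and 7 lower, beside the same 6.08% and 5.71% of all genes, and limma on log2(RPKM + 1) with the term called 4 lower, beside 1.32% of all genes. Against wild-type controls 4 of the 21 fell in edgeR with the replicate term (her15.1, hes6, insm1a and mki67), beside 1.55% of all genes called lower, with a median of -0.45. The counts of these 3 lists depend on single libraries in edgeR with the replicate term. Against siblings 0 genes were called without any mutant or sibling library, whereas without wild-type control replicate 1 the calls were 1 higher and 5 lower for the eye field list, 3 higher and 8 lower for neurogenesis, and 3 higher and 7 lower for Notch and proliferation. That fit called 11.1% of all genes higher and 10.9% lower. Against wild-type controls 0 were called without either sibling library or without mutant replicate 2, whereas without wild-type control replicate 1 they were 2 higher and 4 lower, 1 higher and 10 lower, and 0 higher and 9 lower for the same lists, in a fit that called 11.2% of all genes higher and 12.1% lower. Without the replicate term edgeR called 0 with the libraries complete; DESeq2 then called 2 Notch and proliferation genes lower against siblings (0.493% of all genes), and 4 of them and 2 neurogenesis genes lower against wild-type controls (0.759% of all genes). Many of the listed genes also act in brain progenitors, so a whole-embryo level does not assign them to the retina.

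Among markers of neighbouring tissues, the lens genes varied with the replicate number. They summed to 237 and 162 RPKM in mutants, 470.5 and 40.8 RPKM in siblings and 321 and 61.1 RPKM in wild-type controls. Of 14 lens genes tested edgeR with the replicate term called none (3 higher without mutant replicate 1, beside 0.447% of all genes), and their median log2 difference of mutants against siblings was -0.73 in replicate 1 and 2.09 in replicate 2. crybb1, a crystallin gene of lens fibres, had 47.8 and 14.8 RPKM in mutants, 86.5 and 1.06 RPKM in siblings and 67.7 and 1.32 RPKM in wild-type controls. Of the 18 lens genes in the files, those at 0 numbered 0 and 0 in mutants, 0 and 2 in siblings and 0 and 1 in wild-type controls. Their part in the results above was not tested. None of the 11 pigment cell, 15 forebrain, 7 pancreas or 15 pan-neuronal genes tested was called between mutants and siblings by edgeR with the replicate term, with medians of 0.025, 0.15, 0.26 and 0.23. Against wild-type controls the pan-neuronal list had 7 genes below 0 and 8 above, with a median of 0.045. tubb5, the 1 gene of the 15 called, fell, with a log2 difference of -0.81 (SE 0.12, adjusted p = 0.0383 in edgeR with the replicate term), beside 1.55% of all genes called lower. Of the 14 genes of the photoreceptor list in the files 1 was expressed enough to be tested (exorh). That gene alone does not stand for the photoreceptors of the retina.

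The genes whose pattern over the 6 whole-embryo libraries was most like each of the 7 were taken by Pearson's r of log2(RPKM + 1) after the mean of the 3 libraries of each replicate number was subtracted. They were slc25a17, barx1 and tal2 for atoh7, apeh, cbx2 and nf2a for rx2, and tmem35, unc5c and ier5l for vsx1. rx1 had exorh, prdm1a and lsr, six3b had fam65a, kirrela and tbx2a, pax6a had kif5c, h2afy2 and c6, and pax6b had fam149b1, tagln2 and frem1b. Their r ran from 0.9934 to 0.9998. With 6 libraries such likeness is easily high, and between 5 and 38 genes exceeded r = 0.99 for each of the 7. None of the genes named for atoh7 or rx2 was itself called between mutants and siblings.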

How the data were processed

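The deposited files hold 1 library each and list 15865 RefSeq transcript records with a read count and RPKM, per the file headers. The submitters' processing notes name TopHat2 2.0.8 and danRer7. The sources used here do not give how reads were counted, or whether by strand. The deposited counts are not normalized, and the authors' RPKM divides each count by transcript length and by 1 read total per file. Whole-embryo libraries were strand-specific (dUTP) and fraction libraries unstranded, per the labels' protocols.

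For each of 14563 symbols the record with most reads in the 6 whole-embryo libraries stood for the gene. Those averaging at least 1 RPKM (10147) were tested, all 7 retinal genes among them. edgeR 4.0.16 (R 4.3.3; TMM scaling, glmQLFit, glmQLFTest) was run on the counts of the 6 libraries in 1 model of 3 groups, and p-values were adjusted by Benjamini-Hochberg across the 10147 genes (threshold 0.05). The planned model has no replicate term; a second model adds replicate number as a block. Groups share the replicate numbers in the labels. The deviation of replicate 1 from replicate 2 correlated across genes between each pair of groups (Pearson r 0.755 for wild-type controls and siblings, 0.711 for wild-type controls and mutants, 0.866 for siblings and mutants), and the files of replicate 1 have their own format, so replicate number was treated as pairing the libraries. Between mutants and siblings, values of both fits are printed for atoh7 and rx2. Other log2 differences are mostly given with the term alone. Standard errors follow from each fold change and its F statistic. Fractions were compared as log2(RPKM + 1) over the 8630 genes averaging at least 1 RPKM there, with exact intervals. limma 3.58.1, DESeq2 1.42.0, other scalings, filters and pseudocounts, and leaving out each library were alternatives; the replicate term with a mean RPKM of 5 or more, with limma on log2(RPKM + 5) or with only the 4 libraries compared was added after seeing the data.

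Genes named are the 7, the 3 most alike in pattern to each, and from each gene list up to 4 with the smallest p and those called, not all of which are printed; crybb1 and the pairs for ratios were picked after their values were seen. The genes and lists were chosen with earlier results of these data known. The code was tested on simulated counts.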

Additional observations from a re-analysis of the deposited data

Results flagged for a closer look

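As deposited, for 2 genes the nuclear and the cytoplasmic fraction gave opposite directions between mutants and siblings. With 1 library per fraction and genotype, the difference between fractions was not tested. On the log2(RPKM + 1) scale, rx1 in mutants relative to siblings stood at -0.19 in nuclei and 0.25 in cytoplasm. The median gene stood at -0.84 in nuclei and 0.021 in cytoplasm, and relative to it rx1 was above in both fractions, by 0.65 in nuclei and 0.23 in cytoplasm. pax6b stood at -2.38 in nuclei and 0.095 in cytoplasm, or -1.54 and 0.075 relative to the median gene. A lower value in nuclei with a higher one in cytoplasm was shared by 43.8% of the 8630 genes.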

How the results depend on the processing

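Without the replicate block 0 of the 7 genes were called between mutants and siblings. With the block, which the pairing check led to, 2 were called (atoh7 and rx2), and also 2 with the block and RLE scaling, the authors' totals, no filter, DESeq2 or limma on log2(RPKM + 0.1), and 4 with the block and only the 4 libraries compared, where 22.1% of all genes were called. DESeq2 with the block called 11.8% of all genes. With the block, 0 were called by limma on log2(RPKM + 1) or log2(RPKM + 5), and 0 of 4 at a mean RPKM of 5 or more, where atoh7, rx2 and vsx1 were not tested. Leaving out 1 library gave 0 to 5 calls with the block, the 5 without wild-type control replicate 1, where 21.9% of all genes were called, against 1.74% with the libraries complete. Between mutants and wild-type controls the count was 0 without the block and 1 with DESeq2 (vsx1), 2 with the block alone or with RLE scaling, the authors' totals or no filter, 3 with the block and DESeq2, limma on log2(RPKM + 1) or log2(RPKM + 0.1), 1 with the block and only the 4 libraries compared, and 0 with the block and limma on log2(RPKM + 5) or a mean RPKM of 5 or more (4 tested). Leaving out 1 library gave 0 to 3 with the block, the 3 without wild-type control replicate 1, where 23.3% of all genes were called. Between siblings and wild-type controls the block and the other alternatives run gave 0.

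Directions near 0 turned. pax6a in mutants against siblings was -0.032 with the authors' totals, and rx1 in mutants against wild-type controls was -0.0024. six3b in mutants against wild-type controls was -0.021 without the block and 0.031 with it, 0.021 and 0.046 with limma (pseudocounts 1 and 0.1, with or without the block), and with the block 0.049 (RLE scaling or DESeq2), 0.047 (authors' totals), 0.032 (no filter) and 0.034 (only the 4 libraries). pax6b in siblings against wild-type controls was -0.083 without the block and 0.11 with it, 0.13, 0.22 and 0.016 with limma (pseudocounts 1, 0.1 and 5, with or without the block), and with the block 0.11 (RLE scaling), 0.16 (authors' totals, or only the 4 libraries), 0.12 (no filter, or DESeq2) and 0.082 (mean RPKM of 5 or more). The cause was not tested.

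Leaving out 1 library turned the direction in some case, over both fits, for these log2 differences. Between mutants and siblings the range ran from -5.21 to 0.15 for atoh7, from -0.030 to 1.66 for rx1, from -0.26 to 0.46 for pax6a and from -0.70 to 0.35 for pax6b. Here atoh7 and rx1 turned only without the block, where a left-out library leaves the groups unequal in replicate number. With the block they ran from -2.65 to -2.41 and from 0.20 to 1.28. Between mutants and wild-type controls the range ran from -0.56 to 1.64 for rx1, from -0.67 to 0.70 for pax6a, from -1.02 to 1.08 for pax6b and from -0.37 to 0.45 for six3b. Between siblings and wild-type controls the range ran from -3.61 to 1.87 for atoh7, from -1.51 to 1.06 for rx1, from -1.39 to 0.57 for rx2, from -0.72 to 0.64 for pax6a and from -0.77 to 1.33 for pax6b. In this comparison atoh7 and rx2 turned only without the block. With it they ran from -0.99 to -0.74 and from -0.64 to -0.31. Scaled by listed reads, 10 of 14 ratios of nucleus to cytoplasm were above 0, against 5 as deposited. The fractions hold 4 to 1667 reads per gene, which limits rx2 and pax6b in mutant nuclei most.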
